A study of Mus musculus with 8 samples.

Results

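Amino acids cross cell membranes on carriers of the solute carrier (SLC) families, and 37 of their genes are described here in the mouse occipital cortex, which contains the visual areas. They were listed by symbol as amino acid transporter genes, with no measured value in the rule, and all 37 were in the table of 24344 distinct symbols. The members and the other lists below were chosen with earlier results of these data known. The tissue came from C57BL/6J mice at postnatal day 35, without food for 48 h in the fasted group (4 libraries) and with free access to food in the ad libitum group (4 libraries). The labels describe it as a homogenate of cortex and name no genetic change in either group. RNA levels are given in FPKM, which count fragments per kilobase of a transcript and per mapped fragments of a library, so that levels can be compared between genes per length. The comparison asks which of these transcripts differ in the cortex of mice without food.

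In brain, such carriers bring essential amino acids across the blood-brain barrier, pass glutamine from astrocytes to neurons for transmitter synthesis, clear glycine, and carry cystine into astrocytes for glutathione. Many of them exchange one amino acid for another, so that the direction of net transport depends on the gradients. Several of their genes are known in cultured cells as targets of ATF4, the transcription factor that is translated when amino acids are scarce.

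Slc7a11, which encodes the cystine and glutamate exchanger xCT of astrocytes, had the largest change of the 32 members tested. Its transcripts stood at 3.53, 3.89, 3.88 and 4.14 FPKM in fasted replicates 1 to 4, against 6.40, 6.52, 6.54 and 8.22 FPKM in ad libitum replicates 1 to 4. Every fasted library was thus below every ad libitum library, and ad libitum replicate 4 lay above the other ad libitum libraries. The mean fell by 44.2%, a log2 change of -0.70 on log2(FPKM + 1) with SE 0.0784 (limma, Benjamini-Hochberg adjusted p = 2.35e-04).

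The promoter of Slc7a11 is shown because it carries a paired match to the C/EBP-ATF response element, the sequence that ATF4 is known to bind. That of Slc7a14, the other gene among those that passed the test whose window matched a searched motif, is shown to compare. The sequences are RefSeq windows of 300 bases in GRCm38.p6, from 250 bases before to 50 after the start site, written 5′ to 3′ on the strand of the gene. Capitals mark matches to TGATGNAA, the core of that element, and to the E-box CACGTG.
Slc7a11 (chr3:50443564-50443863, minus strand): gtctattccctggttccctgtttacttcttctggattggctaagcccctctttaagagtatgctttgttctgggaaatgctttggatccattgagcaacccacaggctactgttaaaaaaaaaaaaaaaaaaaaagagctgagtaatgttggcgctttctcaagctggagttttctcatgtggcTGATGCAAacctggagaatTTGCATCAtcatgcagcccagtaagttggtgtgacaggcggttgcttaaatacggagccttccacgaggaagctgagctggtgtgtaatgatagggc
Slc7a14 (chr3:31310270-31310569, minus strand): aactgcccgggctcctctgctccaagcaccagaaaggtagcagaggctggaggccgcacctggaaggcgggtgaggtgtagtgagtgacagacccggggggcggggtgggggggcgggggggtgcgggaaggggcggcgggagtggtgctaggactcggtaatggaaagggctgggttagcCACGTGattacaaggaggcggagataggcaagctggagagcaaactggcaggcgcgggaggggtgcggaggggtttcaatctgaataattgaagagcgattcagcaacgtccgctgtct
In Slc7a11 the matches begin 66 and 47 bases before the start site and lie on opposite strands. RefSeq windows were found for 26 of the 37 members, and 9 of the 11 members that passed the test were among them. On either strand, the response element core occurred in 4 of 40 member windows, which belong to Slc1a4, Slc7a11 and Slc7a7 (11.5% of the 26 members, against 4.0% of all genes with a window), against 3.4% of the 20754 windows of all genes in the table. The core of the glucocorticoid response element, ACANNNTGT, occurred in 1 member window (2.5%), that of Slc6a17, against 6.0% of all windows. The E-box occurred in 4 member windows, those of Slc36a1, Slc38a7, Slc43a1 and Slc7a14, against 8.1% of all windows. The 2 windows of Slc7a7 that held a match overlap each other. No member window held matches to more than 1 of these motifs. These matches describe the letters in the windows, and binding was not measured.

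Between 254086 and 640017 FPKM were summed per library, and the low values gave an uncertain estimate of 17.0 to 21.4 × 1e6 fragments per library. At this depth, 1 FPKM on a transcript of 2 kb stands for about 34.0 to 42.8 fragments. The largest sum belonged to ad libitum replicate 2. Transcripts of 4 Y-linked genes were found in the replicates with odd numbers and Xist in those with even numbers, except that ad libitum replicate 3 held both, at 32.2 FPKM of Xist and 20.2 FPKM of Y-linked transcripts. All 10 excitatory neuron markers of a fixed list were measured, while the 8 markers of choroid plexus and ependyma summed to 2.61 to 4.69 FPKM in fasted libraries and 1.96 to 2.97 FPKM in ad libitum libraries.

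All 32 members tested were at 1 FPKM or more in every library. The other 5, Slc1a5, Slc7a7, Slc16a10, Slc38a4 and Slc43a1, were under 1 FPKM in every library and were not tested. Of the 32, 7 rose in fasted cortex (21.9%), where 9.56% of all 12377 genes tested rose, and 4 fell (12.5%), where 16.3% of all genes fell. The difference between these shares was not tested, and the members were chosen with earlier results of these data known. The median log2 change of the tested members was 0.002, beside -0.024 over all genes tested. The groups did not overlap for 10 members that were higher in fasted cortex and 5 that were lower, beside 11.1% and 16.5% of all genes tested. Both groups use the numbers 1 to 4, and a fit blocked on that number gave 10 members higher (31.2%, beside 14.3% of all genes) and 9 lower (28.1%, beside 22.1%). Offsets for GC and length gave 9 higher and 8 lower members, and also more genes called in each direction over all genes tested. When ad libitum replicate 3 was left out there were 7 higher and 5 lower. For ad libitum replicate 2 there were 7 and 4, and for ad libitum replicate 4 there were 7 and 7. With each library left out in turn, 841 to 1196 of all genes tested were higher and 1406 to 2572 lower.

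**Figure D1:**
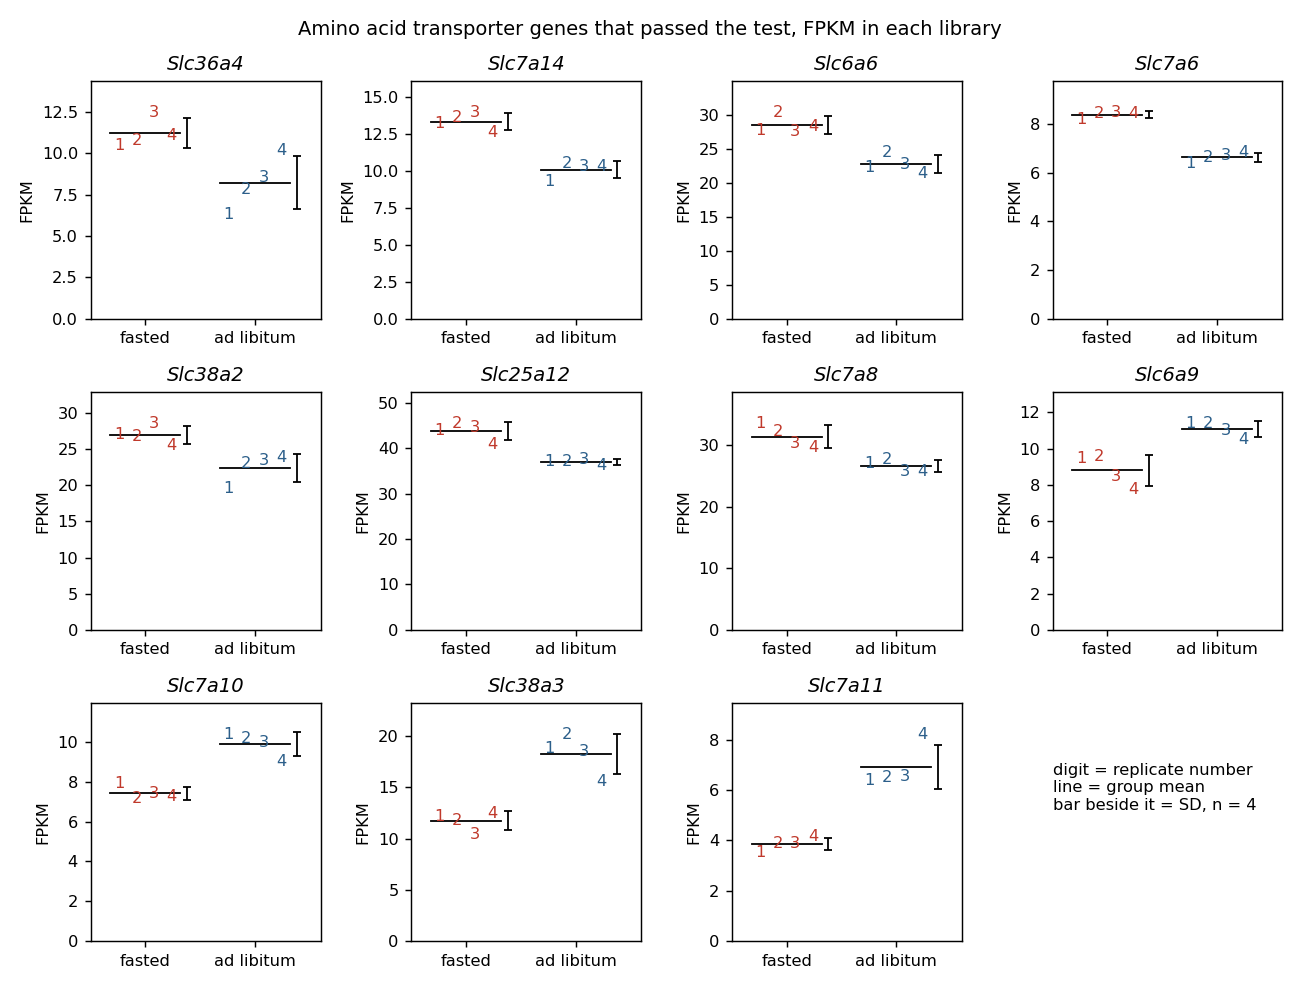
FPKM of the 11 amino acid transporter genes that passed the test, with the fasted libraries left and the ad libitum libraries right in each panel. Digits are replicate numbers, lines the group means and bars the SD (n = 4 each). The groups do not overlap in any of the 11 panels, and Slc7a11 and Slc38a3 are the most separated of the genes that fell.

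The heteromeric exchangers pair the heavy chain 4F2hc, encoded by Slc3a2, with a light chain that selects the amino acids. The heavy chain gene stood at 36.3 ± 1.84 FPKM in fasted cortex and 38.3 ± 2.10 FPKM in ad libitum cortex (SD, n = 4 each). Its log2 change of -0.07 (95% interval -0.20 to 0.05) had limma adjusted p = 0.362 and was not called. Among the light chains, 2 rose and 2 fell.

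Slc7a8 encodes LAT2, a carrier of neutral amino acids, and was the most abundant light chain gene. It stood at 33.6, 32.2, 30.3 and 29.6 FPKM in fasted replicates 1 to 4, against 27.1, 27.7, 25.8 and 25.7 FPKM in ad libitum replicates 1 to 4. The groups did not overlap, and the log2 change was 0.23 with SE 0.0542 (limma adjusted p = 0.00975). Slc7a6, which encodes y+LAT2, an exchanger of cationic against neutral amino acids, had 8.20, 8.43, 8.49 and 8.43 FPKM in fasted replicates 1 to 4, against 6.38, 6.61, 6.70 and 6.84 FPKM in ad libitum replicates 1 to 4. Its spread within each group was small (SD 0.131 FPKM in fasted and 0.194 FPKM in ad libitum cortex), and it rose by 0.30 on the log2 scale (SE 0.0486, limma adjusted p = 0.00158).

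Slc7a10 encodes Asc-1, an exchanger of small neutral amino acids such as glycine and D-serine. It had 7.90, 7.16, 7.41 and 7.25 FPKM in fasted replicates 1 to 4, against 10.4, 10.2, 10.02 and 9.04 FPKM in ad libitum replicates 1 to 4. All fasted libraries were below all ad libitum libraries, with a log2 change of -0.37 and SE 0.0582 (limma adjusted p = 0.00127). Its exons share 377 bases with the gene Lrp3 on the opposite strand, which averaged 15.7 FPKM, and without known strand use in counting the reads of this stretch cannot be assigned. Slc7a5 encodes LAT1, the carrier of large neutral amino acids at the blood-brain barrier. It averaged 15.3 ± 0.970 FPKM in fasted and 14.2 ± 1.31 FPKM in ad libitum cortex (SD, n = 4 each), a log2 change of 0.10 (95% interval -0.05 to 0.25) that did not pass (limma adjusted p = 0.321).

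Summed over the 6 light chain genes, levels were 64.6 to 70.2 FPKM in fasted libraries and 62.4 to 67.7 FPKM in ad libitum libraries, which overlap. Slc7a8 made up 45.8 to 47.8% of the summed light chain FPKM in fasted libraries and 40.0 to 41.7% in ad libitum libraries. Slc7a11 made up 5.0 to 6.4% in fasted and 9.6 to 12.8% in ad libitum libraries, and Slc7a10 10.5 to 11.5% and 14.1 to 16.1% in fasted and ad libitum libraries. The shares of these 3 genes did not overlap between the groups. That of Slc7a6 did not overlap either (11.7 to 13.1% in fasted and 9.8 to 10.7% in ad libitum libraries). All of these genes were called on the same values, so their shares restate those calls and are no further test. The share of Slc7a5 did overlap (22.0 to 23.4% in fasted and 20.8 to 23.7% in ad libitum libraries). The ratio of Slc3a2 to the light chain sum was 0.53 to 0.56 in fasted libraries and 0.57 to 0.61 in ad libitum libraries, a description of RNA levels that was not tested. Slc7a7, the light chain gene y+LAT1, stayed under the filter at 0.349 to 0.574 FPKM in fasted and 0.432 to 0.659 FPKM in ad libitum libraries. Its exons share 232 bases with Oxa1l on the opposite strand, which averaged 11.2 FPKM. Without known strand use, the low level of Slc7a7 is uncertain.

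**Figure D2:**
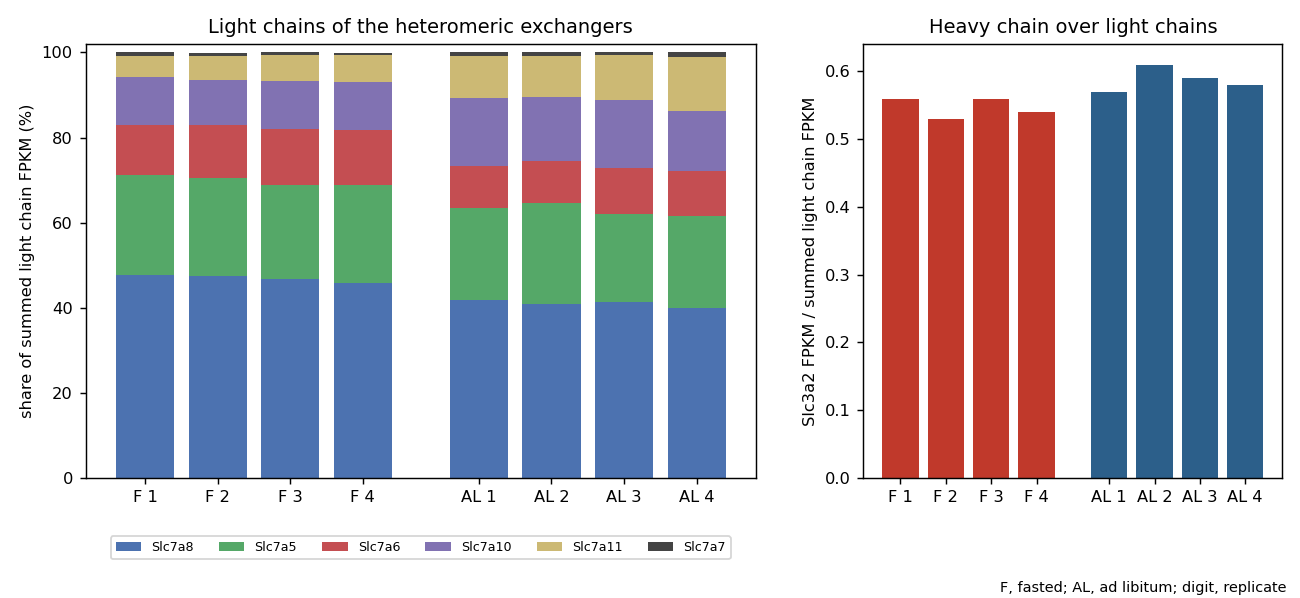
Left, the share of each light chain gene in the summed light chain FPKM of each library, as stacked bars in percent. Right, Slc3a2 FPKM over the summed light chain FPKM. Slc7a8 takes a larger and Slc7a11 a smaller share in the 4 fasted libraries (F) than in the 4 ad libitum libraries (AL).

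The cationic amino acid family carries arginine, lysine and ornithine on its best known members. Slc7a14, a family member found in lysosomes, was the only one of the 5 that passed the test, with 13.2, 13.6, 14.0 and 12.6 FPKM in fasted replicates 1 to 4, against 9.27, 10.5, 10.3 and 10.3 FPKM in ad libitum replicates 1 to 4. The lowest fasted library lay above the highest ad libitum library. The log2 change was 0.37 with SE 0.0563 (limma adjusted p = 0.00106). Slc7a1, which encodes the widespread arginine and lysine carrier CAT1, averaged 7.04 ± 0.199 FPKM in fasted and 6.77 ± 0.566 FPKM in ad libitum cortex (SD, n = 4 each) and did not pass (log2 change 0.05, 95% interval -0.08 to 0.19).

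Slc7a4, a family member without an established substrate, averaged 9.12 ± 0.765 FPKM in fasted and 10.8 ± 1.13 FPKM in ad libitum cortex (SD, n = 4 each). Its limma adjusted p was 0.0666, and 0.00624 with the replicate block. Its exons share 554 bases with P2rx6 on the opposite strand, at a mean of 1.37 FPKM. Slc7a3, which encodes the neuronal carrier CAT3, averaged 1.95 ± 0.0635 FPKM in fasted and 2.55 ± 0.564 FPKM in ad libitum cortex (SD, n = 4 each; limma adjusted p = 0.0841, and 0.0414 with the block). Slc7a2, the gene of CAT2, stood at 3.13 ± 0.134 FPKM in fasted and 3.36 ± 0.247 FPKM in ad libitum cortex (SD, n = 4 each) with a log2 change of -0.08.

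**Figure D3:**
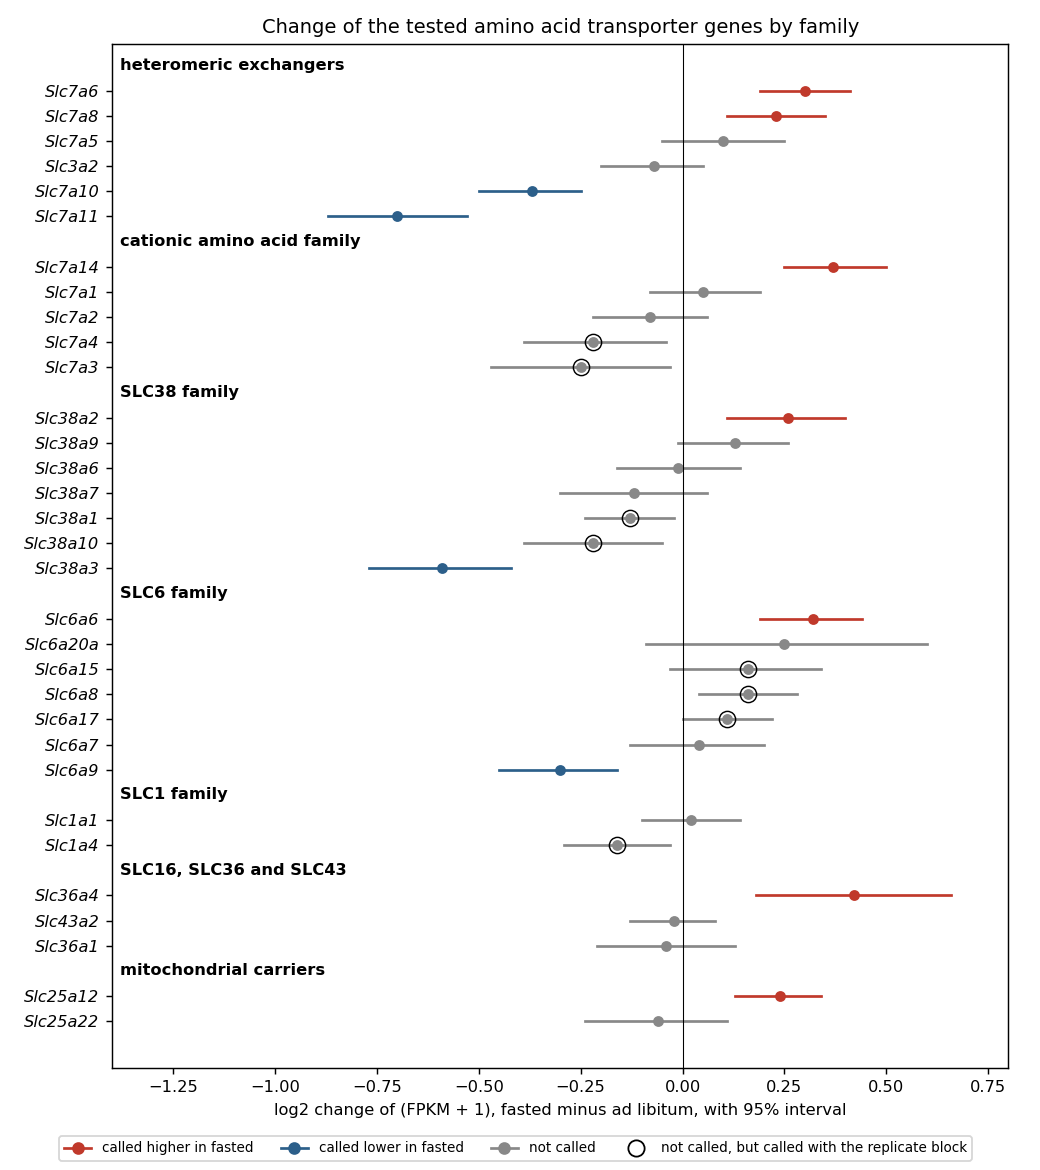
Log2 change of (FPKM + 1), fasted minus ad libitum, with its 95% interval for the 32 members tested, in families. Red marks the 7 genes that rose, blue the 4 that fell and grey the rest, and rings mark genes called with the replicate block in addition. The heteromeric exchangers, the SLC38 and the SLC6 family each hold genes that rose and genes that fell.

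The SLC38 family holds the sodium-coupled neutral amino acid transporters of the glutamine cycle. Slc38a3 encodes SNAT3, through which astrocytes release glutamine. It stood at 12.2, 11.8, 10.4 and 12.5 FPKM in fasted replicates 1 to 4, against 18.8, 20.2, 18.5 and 15.6 FPKM in ad libitum replicates 1 to 4. No fasted library reached the lowest ad libitum one. The mean fell by 35.7%, a log2 change of -0.59 with SE 0.0797 (limma adjusted p = 5.89e-04).

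Slc38a2 encodes SNAT2, a carrier of small neutral amino acids whose gene is a known target of ATF4 in amino acid-starved cultured cells. It had 27.0, 26.8, 28.6 and 25.5 FPKM in fasted replicates 1 to 4, against 19.6, 23.0, 23.4 and 23.8 FPKM in ad libitum replicates 1 to 4. The groups did not overlap, and ad libitum replicate 1 was the lowest library. The log2 change was 0.26 with SE 0.0662 (limma adjusted p = 0.0159), and without fasted replicate 3 the adjusted p was 0.0501. The ratio of Slc38a2 to Slc38a3 FPKM was 2.04 to 2.74 in fasted libraries and 1.04 to 1.53 in ad libitum libraries, given as a description with no test.

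Slc38a1, which encodes the neuronal glutamine carrier SNAT1, was lower in every fasted library (21.7 to 23.5 FPKM) than in every ad libitum library (23.6 to 26.3 FPKM). Its log2 change of -0.13 had limma adjusted p = 0.0738, and 0.0473 with the replicate block. Slc38a10, a broadly expressed member of the family, averaged 8.40 ± 0.986 FPKM in fasted and 9.91 ± 0.609 FPKM in ad libitum cortex (SD, n = 4 each), with limma adjusted p = 0.0601, and 0.00925 with the block. Slc38a9 encodes the lysosomal arginine sensor upstream of mTORC1. It ranged over 2.79 to 3.24 FPKM in fasted and 2.54 to 2.77 FPKM in ad libitum libraries, without overlap, and its log2 change of 0.13 (95% interval -0.01 to 0.26) did not pass (limma adjusted p = 0.144). Slc38a7, a lysosomal glutamine carrier gene, ranged over 5.49 to 6.78 FPKM in fasted and 5.99 to 7.98 FPKM in ad libitum libraries, and Slc38a6 over 2.67 to 3.33 FPKM in fasted and 2.73 to 3.17 FPKM in ad libitum libraries. Their log2 changes of -0.12 and -0.01 were not past the threshold. Slc38a4 was at 0.335 to 0.497 FPKM in fasted and 0.349 to 0.549 FPKM in ad libitum libraries.

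The SLC6 family members carry taurine, proline, glycine, creatine and branched-chain amino acids with sodium. Slc6a6, which encodes the taurine transporter TauT, had 27.7, 30.4, 27.5 and 28.3 FPKM in fasted replicates 1 to 4, against 22.3, 24.5, 22.7 and 21.3 FPKM in ad libitum replicates 1 to 4. All fasted libraries exceeded all ad libitum libraries, a log2 change of 0.32 with SE 0.0563 (limma adjusted p = 0.00248). Slc6a9, which encodes the glycine transporter GlyT1, moved the other way. It stood at 9.47, 9.54, 8.48 and 7.75 FPKM in fasted replicates 1 to 4, against 11.4, 11.4, 11.02 and 10.5 FPKM in ad libitum replicates 1 to 4.

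The groups did not overlap for Slc6a9, and its log2 change was -0.30 with SE 0.0674 (limma adjusted p = 0.00789). It shares 46 exon bases with B4galt2 (mean 24.6 FPKM) and 1429 with Ccdc24 (mean 0.3 FPKM) on the opposite strand. Slc6a8, the creatine transporter gene on the X chromosome, was at 22.8 to 25.8 FPKM in fasted and 20.2 to 22.4 FPKM in ad libitum libraries, without overlap. Its log2 change of 0.16 (95% interval 0.04 to 0.28) had limma adjusted p = 0.0539, and 0.0333 with the replicate block.

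Slc6a17, which encodes the synaptic vesicle transporter NTT4 of neurons, was the most abundant of the 37 members in both groups, at 90.0 ± 2.67 FPKM in fasted and 83.3 ± 1.43 FPKM in ad libitum cortex (SD, n = 4 each). Its groups did not overlap, and the log2 change of 0.11 had limma adjusted p = 0.116, and 0.0476 with the block. Slc6a15, which encodes a neuronal carrier of branched-chain amino acids and proline, averaged 13.0 ± 1.21 FPKM in fasted and 11.6 ± 1.26 FPKM in ad libitum cortex (SD, n = 4 each; limma adjusted p = 0.188, and 0.0265 with the block). Slc6a7, the gene of the brain proline transporter, was at 20.7 ± 1.76 FPKM in fasted and 20.1 ± 1.84 FPKM in ad libitum cortex (SD, n = 4 each) and did not pass (limma adjusted p = 0.751). Slc6a20a, an imino acid transporter gene, ranged over 4.99 to 7.12 FPKM in fasted and 3.39 to 6.20 FPKM in ad libitum libraries. The mouse genome holds a near copy, Slc6a20b, and how reads that match both were counted is not known, so that its level is uncertain. It had the largest SE of the tested members, with a 95% interval of -0.09 to 0.60 around its log2 change of 0.25.

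Of the SLC1 family, Slc1a1, which encodes the neuronal glutamate and cysteine transporter EAAC1, averaged 30.9 ± 1.62 FPKM in fasted and 30.6 ± 1.37 FPKM in ad libitum cortex (SD, n = 4 each). The interval of its log2 change ran from -0.10 to 0.14. Its exons share 2631 bases with 4430402I18Rik on the opposite strand, which averaged 1.54 FPKM. Slc1a4, the gene of ASCT1, which carries serine and alanine, averaged 12.6 ± 0.889 FPKM in fasted and 14.2 ± 0.671 FPKM in ad libitum cortex (SD, n = 4 each; limma adjusted p = 0.0706, and 0.0270 with the replicate block). Slc1a5, the gene of the glutamine carrier ASCT2, was at 0.334 to 0.729 FPKM in fasted and 0.50 to 0.629 FPKM in ad libitum libraries.

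Slc36a4 encodes a carrier of proline and tryptophan and had the largest rise. It stood at 10.5, 10.8, 12.5 and 11.1 FPKM in fasted replicates 1 to 4, against 6.32, 7.82, 8.56 and 10.2 FPKM in ad libitum replicates 1 to 4. The ad libitum libraries were spread widely, and replicate 4 came close to the lowest fasted library. The log2 change was 0.42 with SE 0.109 (limma adjusted p = 0.0160), and without fasted replicate 3 the adjusted p was 0.0513. Slc36a1, the gene of the lysosomal proton-coupled carrier PAT1, averaged 10.5 ± 1.08 FPKM in fasted and 10.8 ± 0.948 FPKM in ad libitum cortex (SD, n = 4 each), a log2 change of -0.04 (95% interval -0.21 to 0.13). Slc43a2, the gene of the branched-chain amino acid uniporter LAT4, averaged 8.10 ± 0.181 FPKM in fasted and 8.24 ± 0.256 FPKM in ad libitum cortex (SD, n = 4 each), a log2 change of -0.02 (-0.13 to 0.08), and neither passed the test. The aromatic amino acid uniporter gene Slc16a10 was at 0.606 to 0.753 FPKM in fasted and 0.481 to 0.668 FPKM in ad libitum libraries, and Slc43a1 was at 0.0452 to 0.181 FPKM in fasted and 0 to 0.110 FPKM in ad libitum libraries.

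In the mitochondrial inner membrane, Slc25a12 encodes aralar, the aspartate-glutamate carrier of the malate-aspartate shuttle. It had 43.8, 45.5, 44.6 and 40.9 FPKM in fasted replicates 1 to 4, against 37.1, 37.1, 37.5 and 36.1 FPKM in ad libitum replicates 1 to 4. The ad libitum libraries lay close together and below every fasted library, and the log2 change was 0.24 with SE 0.0493 (limma adjusted p = 0.00587). Slc25a22, which encodes a mitochondrial glutamate carrier, averaged 67.1 ± 6.29 FPKM in fasted and 70.2 ± 5.51 FPKM in ad libitum cortex (SD, n = 4 each), a log2 change of -0.06 (95% interval -0.24 to 0.11).

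**Figure D4:**
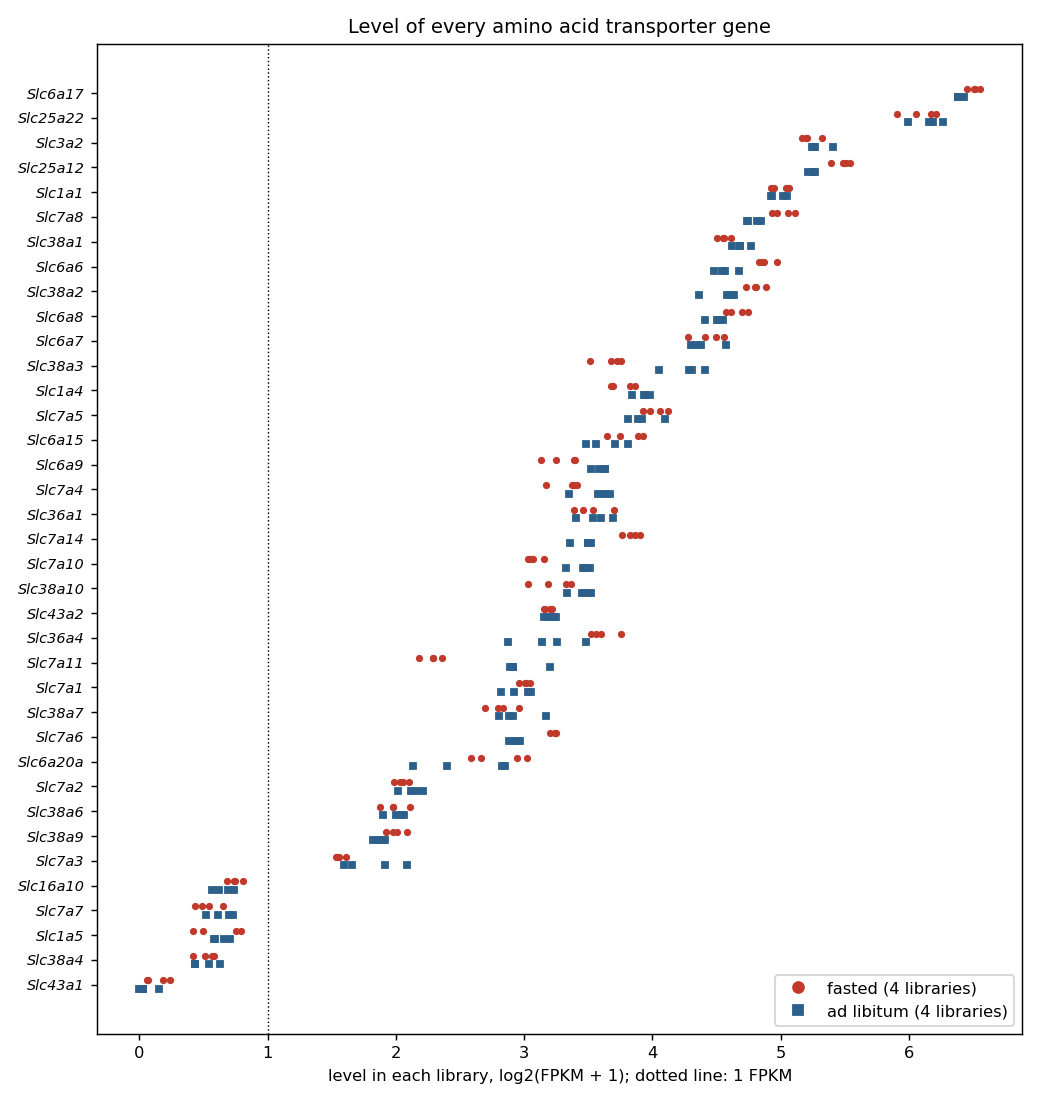
Level of each of the 37 members in each library as log2(FPKM + 1), ordered by the ad libitum mean, with the dotted line at 1 FPKM. Slc6a17 stands highest in both groups, 5 members lie under 1 FPKM, and Slc38a3 and Slc7a11 are shifted left in the fasted libraries.

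Levels per length spanned a wide range. After Slc6a17 the highest means in fasted cortex were those of Slc25a22, Slc25a12, Slc3a2 and Slc7a8, and in ad libitum cortex those of Slc25a22, Slc3a2, Slc25a12 and Slc1a1. The ranges of Slc3a2 and Slc25a12 overlapped in ad libitum libraries (36.9 to 41.4 FPKM and 36.1 to 37.5 FPKM) and not in fasted libraries (34.8 to 39.0 FPKM and 40.9 to 45.5 FPKM). Slc7a11 ranked 28 in fasted and 24 in ad libitum cortex among the 37 members, and Slc36a4 ranked 17 in fasted and 23 in ad libitum cortex.

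The 11 members that passed the test lie on 9 chromosomes in GENCODE M21 (GRCm38). Slc7a11 spans 49892526 to 50443614 and Slc7a14 31202858 to 31310378, both on chromosome 3. Slc38a3 lies on chromosome 9 at 107650634 to 107669530 and Slc36a4 on the same chromosome at 15709738 to 15743361. Slc38a2 (96687392 to 96699730) lies on chromosome 15 between Slc38a1 (96571418 to 96642913) and Slc38a4 (96994820 to 97055956). Of these 3 neighbours, Slc38a2 rose, Slc38a1 did not pass the test at a log2 change of -0.13, and Slc38a4 was under the filter.

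In bulk tissue, fewer cells of a type and less RNA per cell cannot be told apart. Slc38a3, Slc7a11 and Slc6a9, which fell, are known from astrocytes. No cell type is set here for Slc7a10, which also fell, or for the genes that rose, and the cells that express the members were not resolved. The marker counts here stand beside 9.56% of all genes tested that rose and 16.3% that fell. Of 12 astrocyte markers 2 rose and 4 fell. Their summed level was 831 to 911 FPKM in fasted and 842 to 905 FPKM in ad libitum libraries. The water channel gene Aqp4 had a log2 change of -0.79 and the connexin gene Gjb6 of 0.77. Microglial markers summed to 124 to 143 FPKM in fasted and 144 to 201 FPKM in ad libitum libraries, with 6 of 12 lower, and 11 lower without ad libitum replicate 4. Pericyte and mural markers summed to 39.0 to 44.9 FPKM in fasted and 51.2 to 60.7 FPKM in ad libitum libraries, with 2 of 8 tested lower, and endothelial markers to 98.0 to 120 FPKM in fasted and 89.7 to 105 FPKM in ad libitum libraries, with 2 of 12 higher and 2 lower. No marker in these 4 lists was at 0 in all libraries, and the part of cell makeup in the transporter levels was not tested. Among the other lists, 1 excitatory neuron marker rose and 4 of 10 fell, and 2 oligodendrocyte markers rose and 1 of 10 fell. In addition, 4 of 8 precursor markers and 3 of 10 fibroblast and meningeal markers fell. Only 1 of 8 choroid plexus and ependyma markers and 4 of 8 blood markers were tested, and none of these passed. No inhibitory neuron marker passed, and 1 of 10, Gad1, was higher with the replicate block (adjusted p = 0.0385). The block also gave 3 astrocyte and 3 oligodendrocyte markers higher, and 4 endothelial markers higher and 3 lower. It gave 8 microglial and 2 oligodendrocyte markers lower and 1 precursor marker higher. With the block, 14.3% of all genes tested were higher and 22.1% lower. Leaving out single libraries moved several of these counts. Precursor markers that fell were 2 when fasted replicate 2, 3 or 4 or ad libitum replicate 1, 2 or 3 was left out, and 1 precursor marker was higher without ad libitum replicate 4. Fibroblast and meningeal markers that fell were 1 without fasted replicate 3 or 4 or ad libitum replicate 2, 3 or 4. Excitatory neuron markers that fell were 2 without fasted replicate 2 or 4 or ad libitum replicate 2 or 3, and oligodendrocyte markers that rose were 1 without fasted replicate 1 or 3 or ad libitum replicate 1, 2 or 4.

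Further amino acid transporter genes outside the 37 were taken from a fixed list of 37 other symbols, of which 20 were tested. Of these 1 rose and 3 fell, with a median log2 change of 0.01, beside 9.56% and 16.3% of all genes tested. Slc38a5, which encodes the glutamine carrier SNAT5, had 0.479 ± 0.0818 FPKM in fasted and 1.63 ± 0.0972 FPKM in ad libitum cortex (SD, n = 4 each). It passed the filter on low values only through the ad libitum libraries, so that a difference was required for it to be tested, and it is counted among the 3 with its log2 change of -0.83 given as a description. Slc25a44, a mitochondrial branched-chain amino acid carrier gene, rose by 0.22, and Slc17a6, the vesicular glutamate transporter gene VGLUT2, and Slc25a15, a mitochondrial ornithine carrier gene, had log2 changes of -0.24 and -0.26. Without fasted replicate 2, fasted replicate 4 or ad libitum replicate 3 only 1 gene of this list fell. The single rise was lost when fasted replicate 1, fasted replicate 2 or ad libitum replicate 3 was omitted, and 2 genes rose on omission of ad libitum replicate 4.

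Of 21 tested genes of the ATF4 response 4 rose and 5 fell, with a median log2 change of -0.13, beside 9.56% and 16.3% of all genes tested. Ddit4, an inhibitor of mTORC1, rose by 0.53. Vegfa, Aldh18a1 and Chac1, which encode an angiogenic factor, an enzyme of proline synthesis and a glutathione-degrading enzyme, had log2 changes of -0.36, -0.35 and -0.36. Slc7a11 and Slc38a2, 2 of the members known as ATF4 targets, had log2 changes of -0.70 and 0.26. Both were called, and they do not stand for the other members. Slc1a4, whose window held a match to the response element core, had a log2 change of -0.16 and was not called. Slc3a2, Slc7a5 and Slc7a1 were not called either, at -0.07, 0.10 and 0.05. The part of ATF4 in the transporter levels was not tested. In the lysosomal amino acid sensing machinery 6 of 28 tested genes rose and 2 fell, with a median log2 change of -0.01. The shares over all genes were 9.56% and 16.3%, as above. Sesn2 was on this list and on the ATF4 response list and is counted in each. The sestrin genes Sesn1 and Sesn2 rose by 0.55 and 0.32, and Seh1l and Fnip2, which encode a subunit of the GATOR2 complex and a partner of folliculin, rose by 0.22 and 0.24. The number that fell ran from 0, without fasted replicate 4 or ad libitum replicate 2, to 4, without ad libitum replicate 4, and was 1 without fasted replicate 3, ad libitum replicate 1 or ad libitum replicate 3.

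**Figure D5:**
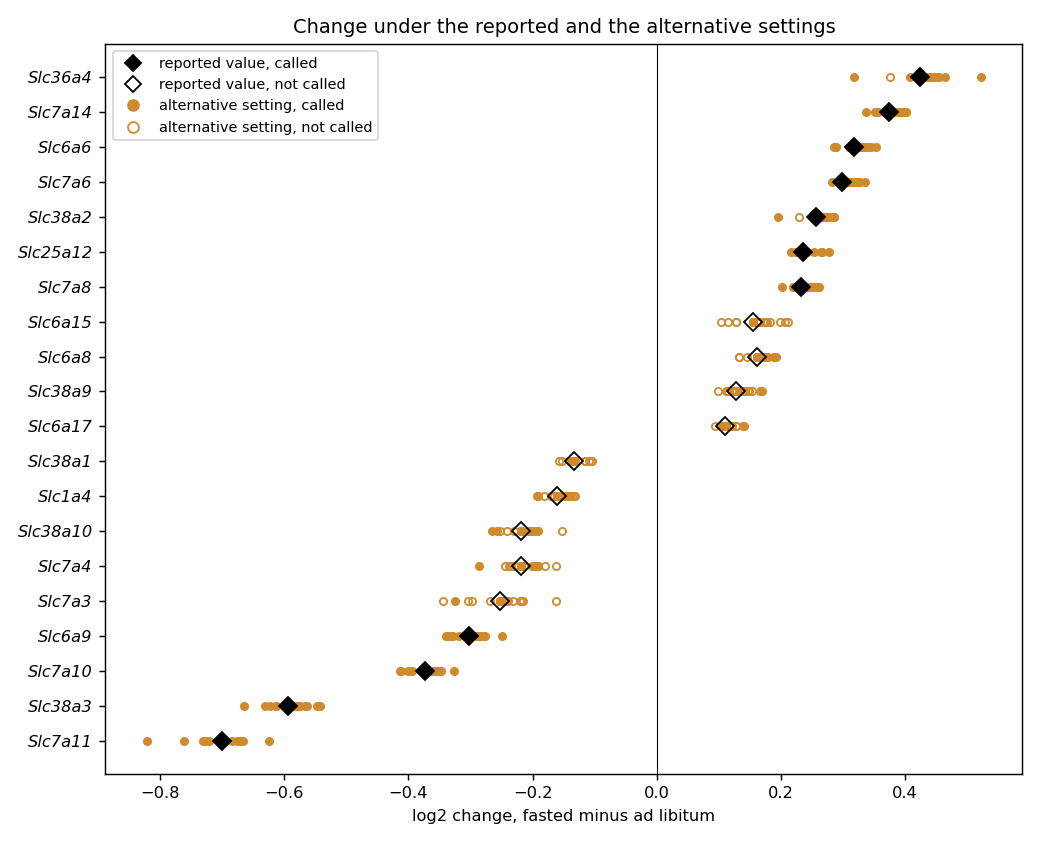
Log2 change, fasted minus ad libitum, of the 20 members called under the reported or any alternative setting. Diamonds are the reported values and circles the alternatives, filled where called. No point crosses 0, and open circles among the 11 called genes are those of Slc36a4 and Slc38a2 without fasted replicate 3.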

How the data were processed

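Levels were taken from the authors' deposited table of FPKM values, with 24883 rows and 1 column per library for 8 libraries of RNA from occipital cortex. Per the submitters' processing notes, TopHat and the build mm10 were used. The version, the program that quantified genes, its annotation and its use of strand are each not given in the sources used here. Where a symbol was on several rows (282 symbols), the row with the highest mean was kept. Each member was on 1 row.

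The 12377 genes that reached 1 FPKM in 4 or more libraries were put on the scale log2(FPKM + 1). They were tested with limma (version 3.58.1, R version 4.3.3), with group as the only term and trended, robust moderation, and calls were made where the Benjamini-Hochberg adjusted p over these genes was under 0.05. The log2 scale with a pseudocount of 1 FPKM understates changes of low genes. FPKM carry no scaling between libraries that is stated, so other scalings were among 20 alternative settings. Nothing says that libraries came from separate mice, so the p-values measure the spread between these libraries. Depth was estimated from FPKM times length in 4110 genes with a single transcript, as the product at which low values lay densest, within a preset range that bounds it.

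Libraries with the same replicate number deviated together over all tested genes, with correlations of 0.574, 0.496, 0.382 and 0.523 across genes, which was taken as pairing from the data. No label states it. Libraries with unlike numbers that are both odd or both even also correlated, fasted 3 with ad libitum 1 at 0.381 and fasted 4 with ad libitum 2 at 0.289, and odd and even numbers also differ in Xist and Y-linked transcripts. Over 11156 autosomal protein-coding genes the same-number values were 0.335, 0.193, 0.076 and 0.371, and fasted 3 correlated more with ad libitum 4 (0.219) than with ad libitum 3. The pairing is therefore uncertain. Blocked values stand beside members and marker counts whose call they change, and otherwise in the closing section.

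Coordinates are from GENCODE M21 (GRCm38, the assembly of mm10), which matched 23284 symbols, and promoters from RefSeq (GRCm38.p6). No promoter was found there for Slc1a5, Slc6a6, Slc6a7, Slc6a8, Slc6a15, Slc7a2, Slc7a3, Slc7a4, Slc7a5, Slc38a1 and Slc38a3. Named genes are all members, with the value of each library where called, and from the other transporter, ATF4, sensing and enzyme lists up to 4 called genes with the smallest p. Of the marker lists, only genes a result touches are named. The members, lists and rules were chosen with earlier results of these data known. Tables were made with pandas 2.3.3 under Python 3.11.15, and figures with matplotlib 3.10.9.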

Additional observations from a re-analysis of the deposited data

Results flagged for a closer look

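Among 74 sets of 4 libraries, 37 members in each group, 2 held a library far from the other 3. Chance flags about 1 in 20 such sets. Slc7a11 was at 8.22 FPKM in ad libitum replicate 4, where the other ad libitum libraries had 6.40 to 6.54 FPKM. Without that library its log2 change was -0.63 (limma adjusted p = 6.61e-05). Slc3a2 was at 41.4 FPKM in ad libitum replicate 2, where the others had 36.9 to 37.6 FPKM. Without it the log2 change of Slc3a2 was -0.04 (limma adjusted p = 0.688). Ad libitum replicate 2 also had the largest FPKM total.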

How the results depend on the processing

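Over 20 alternative settings no member that was called changed direction. In 636 comparisons of a tested member with its reported value, 601 kept their side of the threshold, 33 passed it in addition and 2 no longer passed it, those of Slc36a4 (adjusted p = 0.0513) and Slc38a2 (0.0501) without fasted replicate 3. The number of members that rose was 7, and 6 to 7 when each library was left out in turn. The number that fell was 4, and 4 to 7 when each library was left out, with 7 without ad libitum replicate 4. It was 8 with GC and length offsets and 9 with the replicate block. The pairing changed no call of the 11 members to not called and added 8: Slc1a4, Slc38a1, Slc38a10, Slc7a3 and Slc7a4 among lower genes and Slc6a8, Slc6a15 and Slc6a17 among higher genes. With odd and even replicate numbers as a term in place of the block, 7 members were higher and 5 lower, and Slc7a3 was the only call added. The cause of these differences was not tested. Median-ratio, equal-sum and quantile scaling gave 9, 8 and 10 higher members and 6 lower members each. Over all genes tested, each of these scalings gave more higher genes than the reported 1183 and fewer lower genes than the reported 2015. Whether the members differ from all genes in this was not tested. Pseudocounts of 0.1 and 0.5 FPKM, other filters, plain moderation and summed rows gave 7 higher and 4 lower members. No scaling moved the median of all genes by more than 0.1 on the log2 scale. Of the other lists, the lysosomal sensing genes that fell were 5 with the block, 1 with no filter and 1 at 5 FPKM, against 2. Those that rose were 8 with the block, against 6. The enzyme genes that rose were 7 with the block, against 4, and those that fell 10, against 7. ATF4 response genes that rose were 2 at 5 FPKM, against 4, and other transporters that fell 1 at 5 FPKM, against 3. With the block 6 ATF4 response genes fell, against 5, and 4 other transporters, against 3. The other transporters that rose were 2 with GC and length offsets and 2 with the block, against 1. The 5 members under 1 FPKM were left out by the filter, and none was called with no filter.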

Other observations

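Enzymes of the amino acids and derivatives that these transporters carry were described by a fixed list, of which 43 of 46 genes were tested. Of these 4 rose and 7 fell, with a median log2 change of -0.06, where 9.56% of all genes tested rose and 16.3% fell, so that the counts of the list are near those over all genes. Among the 7 were both enzymes of creatine synthesis. Gatm, which encodes the amidinotransferase, averaged 18.6 ± 0.649 FPKM in fasted and 23.9 ± 1.92 FPKM in ad libitum cortex, and Gamt, the methyltransferase, 5.31 ± 0.203 FPKM in fasted and 7.71 ± 0.915 FPKM in ad libitum cortex (SD, n = 4 each; log2 changes of -0.35 and -0.46, limma adjusted p = 0.00233 and 0.00169). The creatine transporter gene Slc6a8 was at a log2 change of 0.16 (limma adjusted p = 0.0539), and it passed the threshold in 6 of 20 alternative settings. Aldh18a1, an enzyme of proline synthesis, had a log2 change of -0.35, and Gclc, which encodes a subunit of the enzyme that starts glutathione synthesis, rose by 0.27. The number that rose was 2 without fasted replicate 1, fasted replicate 3 or ad libitum replicate 3.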
